A study of Mus musculus with 2 samples.

Results

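The Krüppel-like factors are a family of zinc finger transcription factors, and 10 of their genes were examined here: Klf1, Klf2, Klf3, Klf4, Klf6, Klf7, Klf9, Klf10, Klf12 and Klf13. They were found as every probe set of the array whose platform annotation gives a single gene symbol that is the current or a former name of one of these genes. The rule found 36 probe sets for the 10 genes, out of 45037 probe sets in all, and 18193 genes could be named by a single symbol. The genes were chosen by family with the Satb1 minus GFP log2 differences of these arrays already known, so every difference given here is a description and carries no test.

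Members of the family share a carboxy-terminal DNA-binding domain made of C2H2 zinc fingers, which recognises GC boxes and CACCC boxes in promoters. Outside that domain they differ, and so do the cofactors they recruit. By textbook grouping, Klf1, Klf2, Klf4, Klf6 and Klf7 act largely as activators, Klf3 and Klf12 are repressors that bind the corepressor CtBP, and Klf9, Klf10 and Klf13 carry a domain that binds the corepressor Sin3A. In blood cells of the mouse, Klf1 drives red cell genes, Klf2 keeps T lymphocytes quiescent and able to recirculate, and Klf4 promotes monocyte formation.

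RNA came from bone marrow cells of wild-type C57BL6J mice, described as LSK Flt3- cells, that is, cells with high c-Kit and with Sca-1 but without lineage markers and without the Flt3 receptor. One group was transduced with Satb1, the gene of a chromatin organiser of the nucleus with a preference for AT-rich DNA, and the control group was transduced with GFP. Each group was measured on 1 array, so there was no replicate spread, no standard error and no p-value for any difference, and an effect of the transduced gene cannot be told apart from a difference between the preparations. The sources used here do not give the age of the mice, the vector and its promoter, the time after transduction or the number of animals behind each array. RNA was taken from bulk cells, so fewer cells of a type and less RNA per cell cannot be told apart.

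Values are MAS5 intensities, the Affymetrix summary of the probes of a probe set on a linear scale. Because low MAS5 values are noisy, any intensity under a floor of 61.7 was raised to it before differences were computed; the floor is the median of all intensities. A difference is the log2 intensity on the array labelled Satb1 minus that on the array labelled GFP, and genes with ratios of 2-fold or more were counted. Each gene was represented by its brightest probe set. The trimmed mean intensity was 497 on each array, and 49.2% of probe sets were above the floor on the array labelled Satb1, against 50.7% on the array labelled GFP. The Satb1 transcript itself was not higher on the array that carries its name: by 1416008_at, its brightest probe set, it stood at 909 on the array labelled Satb1 and 1116 on the array labelled GFP. All 5 of its probe sets read lower on the array labelled Satb1: 1416007_at read 908 on the Satb1 array and 963.5 on the GFP array, and 1436182_at 165 on the Satb1 array and 288 on the GFP array, where the ratio of GFP over Satb1 was 1.75. The dimmer 1439449_at read 30.5, under the floor, on the array labelled Satb1 and 81.4 on the array labelled GFP, and 1439315_at was under the floor on both. Where its probe sets lie relative to the transduced sequence is not given, so all directions rest on the labels. Of the genes that define the cell fraction, Kit read 3388 on the array labelled Satb1 and 3293 on the array labelled GFP, with its other probe set lower, and Flt3 transcript read 1334 on the array labelled Satb1 and 1390 on the array labelled GFP. The Sca-1 gene was not analysed here. Other surface genes of blood progenitors, which are not part of this definition, were also read. Cd34 read 8197 on the Satb1 array and 8563 on the GFP array, Cd48 2908 on the Satb1 array and 3225 on the GFP array, and Procr 125 on the Satb1 array and 133 on the GFP array. Slamf1 read 233 on the Satb1 array and 95.7 on the GFP array, a 2.43-fold ratio, with 1 of its 3 probe sets above the floor. The lineage antigen genes Cd3e, Cd4 and Ms4a1, named after their values were seen, were below the floor on both arrays, and the 2 others measured, Cd8a (Satb1 array 148, GFP array 88.9) and Itgam (Satb1 array 121, GFP array 127), were dim.

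All 10 Krüppel-like factor genes were above the floor on both arrays, and 9 of them read higher on the array labelled Satb1. Klf4 and Klf2 were higher by at least 2-fold, 0 members were lower by 2-fold, and 8 were within 2-fold. Over all 11048 genes above the floor, 30 were at least 2-fold higher, which is 0.272%, and 95 at least 2-fold lower, which is 0.86%, so that 1.13% were 2-fold apart. At 1.5-fold, 3 members were higher (Klf1, Klf2 and Klf4) and 0 lower, beside 1.75% of all genes higher and 3.91% lower. The median log2 difference of the 10 members was 0.25, beside -0.02 over all genes above the floor, of which 45.2% were higher by any amount. The members were chosen with these differences known, so nothing is read from this contrast with the background. The background split depended on scaling: 76% of the genes 2-fold apart were lower as deposited, and 52.6% after quantile normalization, when 54 genes (0.489%) were higher and 60 (0.544%) lower. The same 9 members read higher after quantile normalization and after centring each array on its median. With the mean over probe sets 8 read higher and 2 lower, Klf13 turning to -0.05, and without the probe sets ending in _s_at or _x_at 8 read higher and 2 lower, Klf12 turning to -0.31.

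**Figure D1:**
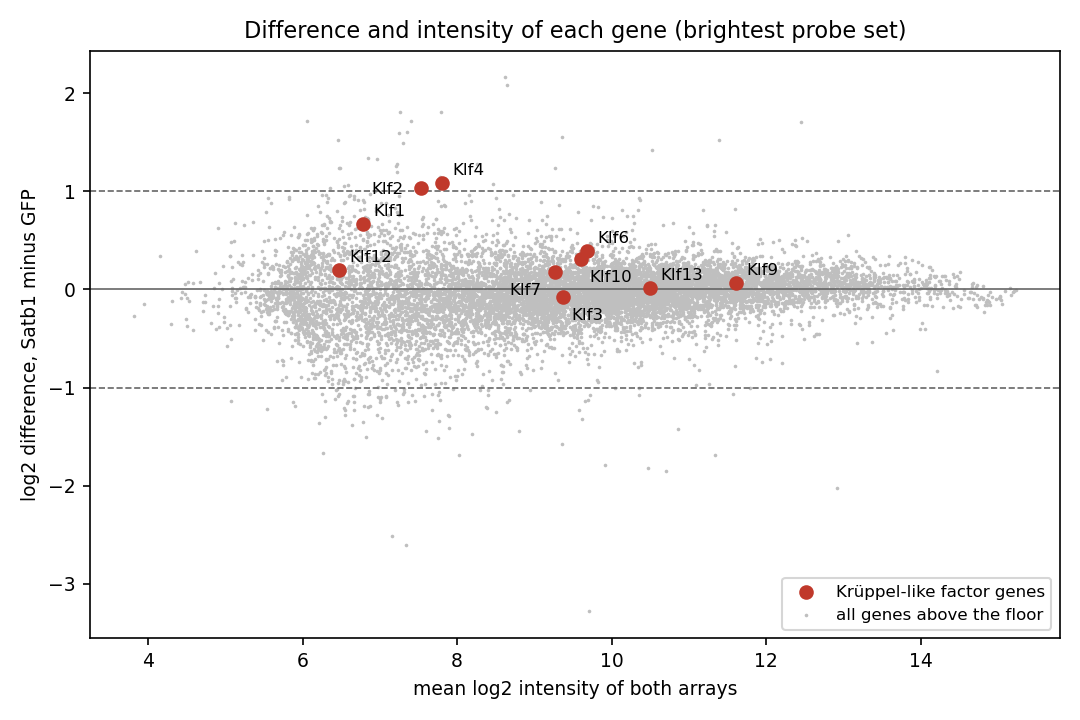
Log2 difference, Satb1 minus GFP, against the mean log2 intensity of both arrays for the brightest probe set of each gene; grey points are the 11048 genes above the floor, red points the 10 Krüppel-like factor genes, and dashed lines mark 2-fold. Klf2 and Klf4 lie above the upper dashed line, Klf1, Klf6 and Klf10 between it and 0, and Klf3, Klf9 and Klf13 near 0.

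Klf4, a factor known for its part in monocyte formation and as a reprogramming factor, had the largest difference of the family. Its brightest probe set (1417394_at) stood at 324 on the array labelled Satb1 and 153 on the array labelled GFP, a log2 difference of 1.08 and a 2.12-fold ratio. Its other probe set (1417395_at) stood at 178 on the array labelled Satb1 and 88.9 on the array labelled GFP, a 2.01-fold ratio. The probe sets of Klf4 therefore gave nearly the same ratio at different brightness. Both stem from the same sequence record and share its errors. Among all genes above the floor, the difference of Klf4 ranked 25 from the top.

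Klf2, a factor of quiescence in lymphocytes and of the response to blood flow in endothelium, was measured by a single probe set (1448890_at). It read 265 on the array labelled Satb1 and 129.6 on the array labelled GFP, a log2 difference of 1.03 and a 2.05-fold ratio, with rank 29 of all genes. No second probe set was available against which to set this value. The members that passed the threshold did so by little, since a 2-fold ratio is a difference of 1 on the log2 scale, and the nearest member on the other side was Klf1 at 0.67.

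Klf2 and Klf4 were among the dimmer members, and dim probe sets scatter more. Among probe sets that share a gene, the log2 difference had an SD of 0.36 for mean intensities under 200 (686 genes), 0.28 from 200 to 500 (581 genes), 0.19 from 500 to 2000 (1027 genes) and 0.13 above 2000 (671 genes). This spread lies within the arrays and leaves out the error of a preparation. Of the genes above the floor with a mean intensity under 200, like Klf2, 0.733% were at least 2-fold higher and 2.2% at least 2-fold lower. Of those from 200 to 500, like Klf4, 0.353% were at least 2-fold higher and 1.16% at least 2-fold lower.

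The region upstream of the transcription start is shown for Klf2 and Klf4, which passed the threshold, for Klf6, whose probe sets all read higher, and for Klf3, whose brightest probe set was close to equal on both arrays. Each run is the 250 bases before the start in RefSeq's annotation of the mouse assembly GRCm38.p6, from 5′ to 3′ on the strand of the gene. Capitals mark matches, on either strand, to the GC box GGGCGG, to the CACCC box CCACCC, both of which this family binds, or to the consensus of MEF2, a factor known to activate Klf2 in endothelium.
Klf2, chr8:72318812-72319061, plus strand: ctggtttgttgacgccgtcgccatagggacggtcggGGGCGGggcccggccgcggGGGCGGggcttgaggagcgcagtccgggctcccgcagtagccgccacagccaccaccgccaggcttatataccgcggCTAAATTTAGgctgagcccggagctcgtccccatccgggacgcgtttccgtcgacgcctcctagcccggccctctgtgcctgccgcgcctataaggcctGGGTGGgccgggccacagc
Klf4, chr4:55532476-55532725, minus strand: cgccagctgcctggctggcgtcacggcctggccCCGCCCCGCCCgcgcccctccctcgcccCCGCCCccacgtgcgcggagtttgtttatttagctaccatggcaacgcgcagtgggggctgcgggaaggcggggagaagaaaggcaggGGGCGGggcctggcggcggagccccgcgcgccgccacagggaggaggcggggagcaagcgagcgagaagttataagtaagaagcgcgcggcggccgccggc
Klf6, chr13:5861239-5861488, plus strand: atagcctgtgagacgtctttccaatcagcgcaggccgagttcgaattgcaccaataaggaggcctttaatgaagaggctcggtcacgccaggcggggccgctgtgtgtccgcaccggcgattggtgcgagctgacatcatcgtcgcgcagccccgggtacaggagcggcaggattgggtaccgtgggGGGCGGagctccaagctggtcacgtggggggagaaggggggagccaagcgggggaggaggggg
Klf3, chr5:64803271-64803520, plus strand: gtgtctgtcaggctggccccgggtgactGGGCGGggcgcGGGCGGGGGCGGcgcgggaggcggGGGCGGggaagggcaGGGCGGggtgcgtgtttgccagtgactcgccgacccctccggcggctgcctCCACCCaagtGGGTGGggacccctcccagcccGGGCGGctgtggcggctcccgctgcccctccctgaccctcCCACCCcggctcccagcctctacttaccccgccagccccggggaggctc

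Upstream regions were found for 9 of the 10 members, all but Klf10. A GC box was present in 6 of the 9 (Klf2, Klf3, Klf4, Klf6, Klf7 and Klf13), beside 32.7% of the 32851 upstream regions of 27025 genes. A CACCC box, searched as CCACCC alone, was present in 4 (Klf2, Klf3, Klf7 and Klf13), beside 28.1% of all regions. Other spellings, such as the CCACACCC in the region of Klf12, were not counted. Klf3 held the most, with 6 GC boxes, 2 of which abut, and 3 CACCC boxes, and its brightest probe set was close to equal on both arrays. Klf4 held 4 GC boxes, of which the 2 farthest from the start overlap by a base, Klf2 held 2 and Klf6 held 1. In Klf13 a GC box and a CACCC box overlap. The MEF2 consensus was found in Klf2 alone among the members, from 118 to 109 bases before the start, and in 0.508% of all regions. The serum response motif known as the CArG box, the cyclic AMP response element TGACGTCA and the GATA motif AGATAA were found in 0 of the 9, and in 1.47%, 1.55% and 9.99% of all regions. The GATA motif was searched by this spelling alone. The region of Klf1 holds the related spelling TGATAA on the opposite strand, which was not counted. Since Satb1 binds AT-rich DNA, base composition was also computed: 7 of the 9 regions had a lower share of A and T than the median of all regions (47.6%), with 21.6% for Klf3, 26% for Klf4, 28.8% for Klf2, 35.2% for Klf6, 50.8% for Klf1 and 52% for Klf12. These matches describe the letters of the windows and show no binding.

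The remaining activator-type members also read higher, by under 2-fold. Klf1, the erythroid factor, was measured by a single dim probe set (1418600_at) that read 138 on the array labelled Satb1 and 87.1 on the array labelled GFP, a difference of 0.67. Klf6, a broadly expressed factor that responds early to growth and injury signals, was covered by 5 probe sets, all of which were above the floor and read higher. Its brightest (1433508_at) read 942 on the array labelled Satb1 and 718 on the array labelled GFP, a difference of 0.39. The next (1427742_a_at) read 708 on the array labelled Satb1 and 448 on the array labelled GFP, a difference of 0.66. The other three, given by their difference alone, lay at 0.44 (1447448_s_at), 0.53 (1418280_at) and 0.32 (1459718_x_at). The endings _s_at and _x_at mark probe sets that can match several transcripts, including those of other genes. The Klf6 probe sets with these endings, 1447448_s_at and 1459718_x_at, carry the same sequence record. The 5 differences of Klf6 thus spanned 0.32 to 0.66 over intensities that reached from near the floor to 942, and 0 reached 2-fold.

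Klf7, known in the mouse from neurons and from a restraint on blood progenitors when overproduced, had 4 probe sets that agreed in direction and not in size. The brightest (1419354_at) read 657 on the array labelled Satb1 and 580.1 on the array labelled GFP, a difference of 0.18. For 1449439_at the intensity was 503 on the array labelled Satb1 and 409.9 on the array labelled GFP, a difference of 0.30. These bright probe sets placed Klf7 well within 2-fold. The dimmer 1419355_at read 270.1 on the array labelled Satb1 and 132 on the array labelled GFP, a difference of 1.03, and 1419356_at read 221 on the array labelled Satb1 and 138 on the array labelled GFP, a difference of 0.68. All 4 carry the same sequence record, and the sources used here do not give their places along the transcript. By the mean over its probe sets Klf7 stood at 0.55, above the 0.18 of the brightest. The probe sets that raised this mean, 1419355_at and 1419356_at, had mean intensities under 200, where the spread between probe sets was 0.36.

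Counted by probe set, the activator-type genes had 13 probe sets, all above the floor and all higher on the array labelled Satb1, 4 of them by at least 2-fold, with a median difference of 0.66. All 13 stayed higher after quantile normalization and after median centring. Over the 20173 named probe sets above the floor on at least 1 array, 47.3% were higher by any amount and 0.327% at least 2-fold higher. The grouping is the textbook one, applied with the values known, so it carries no test. Klf5, an activator-type gene outside the chosen 10, read 143 on the array labelled Satb1 and 97.0 on the array labelled GFP by its brightest probe set, a difference of 0.56.

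**Figure D2:**
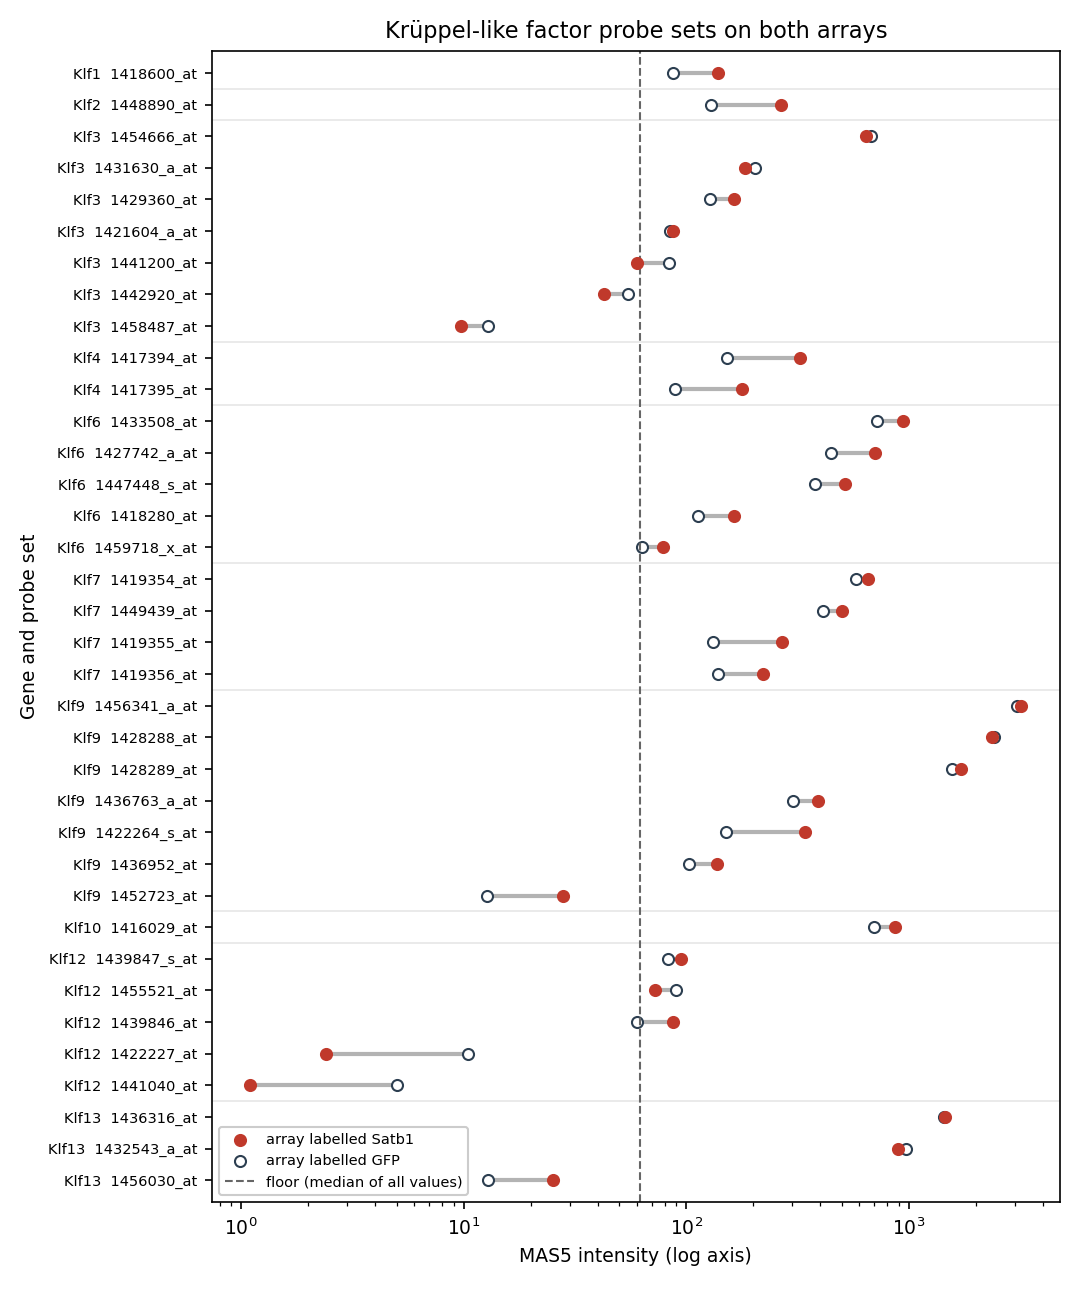
MAS5 intensity on a log axis of the 36 probe sets of the 10 genes, with a filled red point for the array labelled Satb1, an open point for the array labelled GFP and a dashed line at the floor of 61.7. The red point lies to the right for every probe set of Klf1, Klf2, Klf4, Klf6 and Klf7, while points of Klf3, Klf12 and Klf13 lie on either side of each other.

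The CtBP-binding members showed no common direction. Klf3, a repressor that acts in B lymphocytes, fat and red cell precursors, was covered by 7 probe sets, 5 of them above the floor on at least 1 array. The brightest (1454666_at) read 642.5 on the array labelled Satb1 and 677 on the array labelled GFP, a difference of -0.08. Of the other four, 1431630_a_at read 183 on the Satb1 array and 203.6 on the GFP array, and 1429360_at read 163 on the Satb1 array and 128 on the GFP array, the second of these being the highest of the gene at 0.35. The probe set 1421604_a_at read 87.4 on the Satb1 array and 84.5 on the GFP array. The lowest, 1441200_at, was under the floor on the array labelled Satb1 (60.2) and over it on the array labelled GFP (84.0). Under the floor on both arrays were 1442920_at (Satb1 array 42.7, GFP array 54.5) and 1458487_at (Satb1 array 9.7, GFP array 12.9). Klf3 was the only member lower by its brightest probe set, and by an amount smaller than the probe set spread of 0.19 in its intensity range.

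Klf12, first described as a repressor of the AP-2 alpha gene, was barely above the floor. Its brightest probe set (1439847_s_at) stood at 94.7 on the array labelled Satb1 and 82.7 on the array labelled GFP, a difference of 0.20, but probe sets with this ending can match transcripts of other genes. The probe set 1455521_at went the other way, at 72.6 on the array labelled Satb1 and 90.1 on the array labelled GFP, and 1439846_at read 87.4 on the array labelled Satb1 and 59.9 on the array labelled GFP. The remaining 2, 1422227_at and 1441040_at, read at most 10.5 on either array. No direction can be given for Klf12. Over both CtBP-binding genes, 4 of the 8 probe sets above the floor were higher and 4 lower.

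Among the Sin3A-binding members, Klf9, a factor induced by glucocorticoids and thyroid hormone, held the brightest probe sets of the family. The brightest (1456341_a_at) read 3198 on the array labelled Satb1 and 3066 on the array labelled GFP, a difference of 0.06. The next, 1428288_at, read 2364 on the array labelled Satb1 and 2409 on the array labelled GFP, a difference of -0.03. With 1428289_at at 1711 on the Satb1 array and 1560.5 on the GFP array, the bright probe sets of Klf9 put it close to no difference. The dimmer ones did not: 1422264_s_at read 339.8 on the array labelled Satb1 and 150.3 on the array labelled GFP, a difference of 1.18 and the largest of any member probe set above the floor. The probe sets 1436763_a_at (Satb1 array 389, GFP array 303) and 1436952_at (Satb1 array 138, GFP array 103) lay between, at 0.36 and 0.42. The 6 probe sets of Klf9 above the floor thus ran from -0.03 to 1.18, and the value for Klf9 depends on which is read. The ending of 1422264_s_at marks probe sets that can match several transcripts, and which ones it matched was not tested.

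Klf10, a gene induced early by TGF-beta, was measured by a single probe set (1416029_at) that read 863 on the array labelled Satb1 and 696 on the array labelled GFP, a difference of 0.31. This is well under 2-fold. It is larger than the spread of 0.19 between probe sets at such intensities, which leaves out the error of a preparation. Klf13, which in T lymphocytes drives the chemokine gene Ccl5, read 1457 on the array labelled Satb1 and 1442 on the array labelled GFP by its brightest probe set (1436316_at), a difference of 0.01. Its second probe set (1432543_a_at) stood at 897 on the array labelled Satb1 and 968.5 on the array labelled GFP, a difference of -0.11. Both values of Klf13 were thus within the probe set spread of 0.19. Of the 9 probe sets of the Sin3A-binding genes above the floor, 7 were higher and 2 lower, with a median of 0.13.

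**Figure D3:**
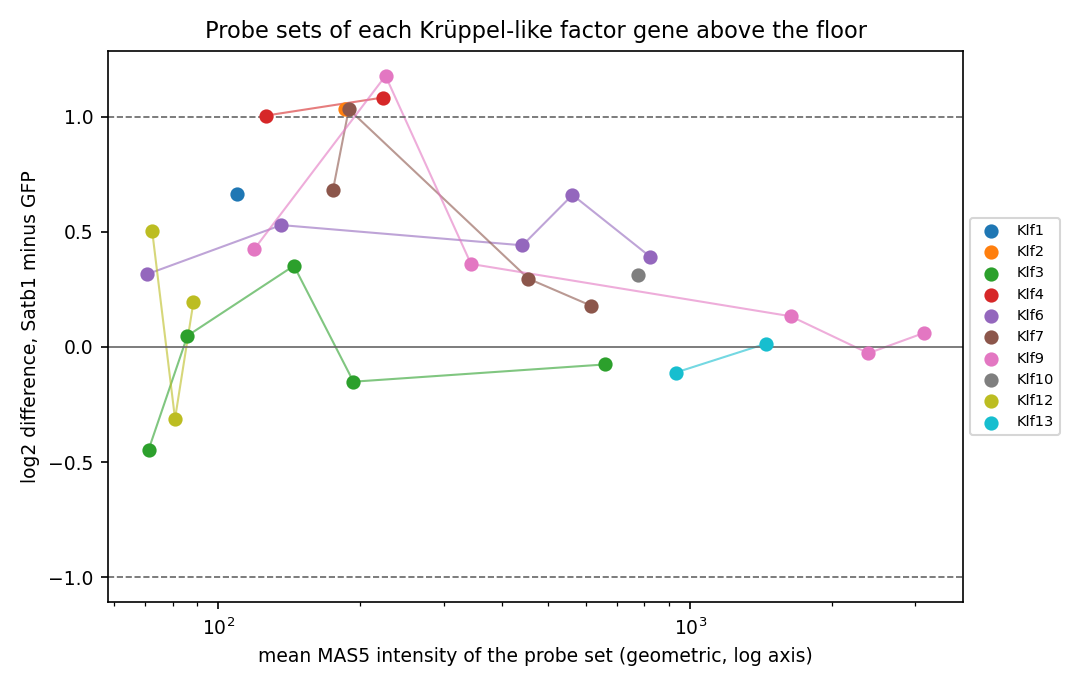
Log2 difference, Satb1 minus GFP, of the 30 member probe sets above the floor on at least 1 array against their geometric mean intensity on a log axis; lines join probe sets of the same gene and dashed lines mark 2-fold. The 5 points above 1 all have mean intensities under 500 and belong to Klf2, Klf4, Klf7 and Klf9, and the points above 2000, all of Klf9, lie near 0.

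The larger differences of the family lay at its dimmer probe sets. Of the 30 member probe sets above the floor, 15 had a mean intensity under 200, with a median difference of 0.42 and 3 at least 2-fold higher. Another 5 lay from 200 to 500, with a median of 0.44 and 2 at least 2-fold higher. The 8 from 500 to 2000 had a median of 0.16, the 2 above 2000 a median of 0.02, and 0 of these were 2-fold apart. All named probe sets above the floor had medians of -0.08, -0.05, -0.01 and 0.04 in the same ranges, as deposited. These medians were not computed after quantile normalization, which raised dim members: Klf1 went from 0.67 to 0.82 and Klf12 from 0.20 to 0.37. Whether intensity plays a part in the larger differences was not tested. The other 6 member probe sets were below the floor on both arrays and gave no difference: 2 of Klf3, 2 of Klf12, 1 of Klf9 (1452723_at) and 1 of Klf13 (1456030_at). Intensities of different probe sets depend on their probes, so the order of brightness is not an order of transcript amounts.

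Genes related to the family were then read from lists. Of the 7 other Krüppel-like factor genes listed, 6 were measured, and 4 of these were above the floor: Klf5, Klf17 (Satb1 array 80.6, GFP array 47.8, under the floor) and Klf11 (Satb1 array 292, GFP array 275.5) read higher, and Klf16, named after its values were seen, read 787 on the array labelled Satb1 and 798 on the array labelled GFP. Klf14 and Klf15, also named after their values were seen, were below the floor, and Klf8 was not analysed here. The Sp factors, which bind the same GC boxes, had 5 genes above the floor, 2 higher and 3 lower, with a median of -0.02 (0.03 after median centring), and their largest differences were those of Sp7 (Satb1 array 88.9, GFP array 57.0, under the floor), Sp6 (Satb1 array 137, GFP array 158) and Sp3 (Satb1 array 3832, GFP array 4266). Of 14 cofactor genes, all above the floor, 9 were higher and 5 lower with a median of 0.03, and 0 were 2-fold apart. Rbbp7 (Satb1 array 19377, GFP array 16481), Sap30 (Satb1 array 5350, GFP array 4640.0) and Sin3b (Satb1 array 3499, GFP array 3102) had the largest differences, although 1 of the 4 probe sets of Sin3b above the floor read lower. Sin3a, the corepressor itself, named after its values were seen, read 1131 on the array labelled Satb1 and 1177 on the array labelled GFP, with all 3 of its probe sets lower. After quantile normalization 6 cofactor genes were higher and 8 lower.

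Genes known to act upstream of family members did not move together. Of 16 above the floor, 8 were higher and 8 lower, 0 were 2-fold apart, and the median was -0.02 (0.03 after median centring). Mapk7, the kinase ERK5 that drives Klf2 through MEF2 factors in endothelium, read 161 on the array labelled Satb1 and 244 on the array labelled GFP. Foxo1, which activates Klf2 in T lymphocytes, read 180.3 on the array labelled Satb1 and 265 on the array labelled GFP, although 1 of its 3 probe sets above the floor went the other way. Both transcripts read lower where Klf2 read higher. Gata1, which activates Klf1 in red cell precursors, read 644 on the array labelled Satb1 and 466 on the array labelled GFP, in the same direction as Klf1. Transcript levels do not measure the activity of these proteins, and their part in the values of Klf2 and Klf1 was not tested.

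**Figure D4:**
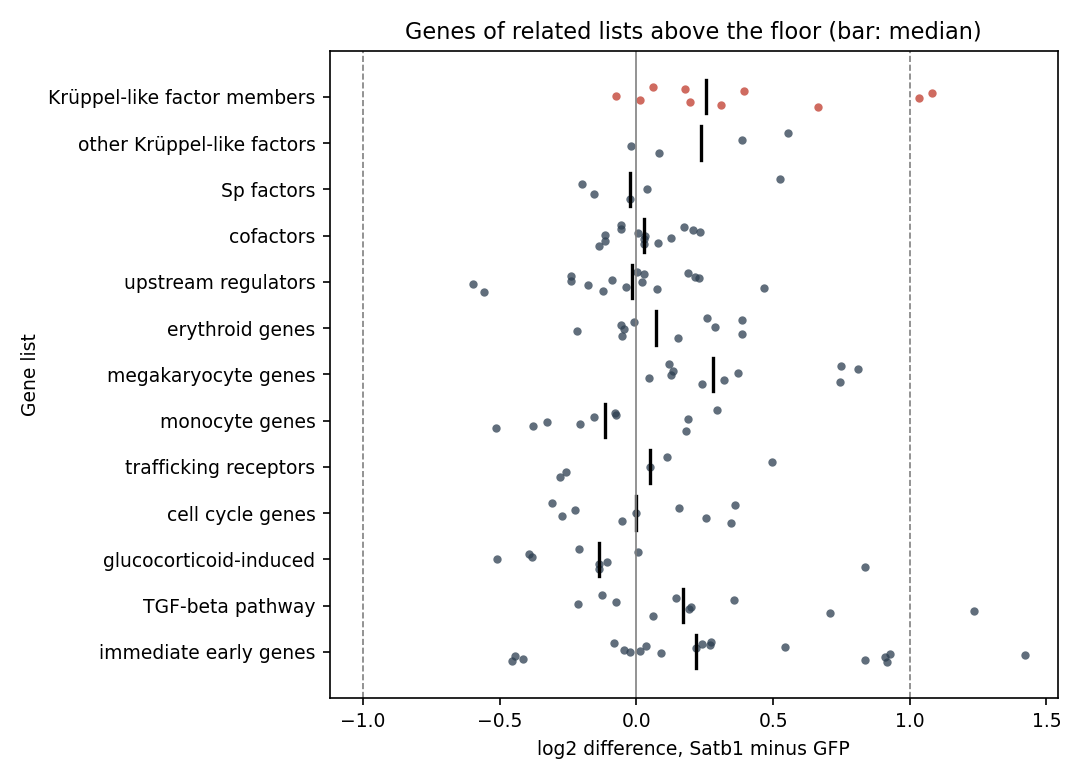
Log2 difference, Satb1 minus GFP, of each gene above the floor in the family (red) and in related lists (dark), with a vertical bar at the median of each list and dashed lines at 2-fold. The family, the megakaryocyte list and the immediate early list have medians of 0.25, 0.28 and 0.22, and the monocyte and glucocorticoid lists lie below 0 at -0.12 and -0.14.

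Markers of the lineages in which members act were set beside them. Beside Klf1, the erythroid list had 10 of 17 measured genes above the floor, 5 higher and 5 lower, with a median of 0.07, summed intensities of 8387 on the array labelled Satb1 and 7289 on the array labelled GFP, and 0 genes 2-fold apart. Its largest differences were those of Sptb (Satb1 array 97.1, GFP array 74.3), Aqp1 (Satb1 array 184, GFP array 141) and Epor (Satb1 array 183, GFP array 149.9), of which Sptb had another probe set that went the other way. Of the mature red cell genes, named after their values were seen, Alas2, Slc4a1 and Hba-a1 read at most 21.4 on either array, under the floor, while Hba-a2 read 181 on the array labelled Satb1 and 188 on the array labelled GFP. After quantile normalization 9 of the 10 were higher. The megakaryocyte list had all 10 measured genes higher, 0 by 2-fold, with a median of 0.28 and summed intensities of 38461 on the Satb1 array and 32822 on the GFP array, and its largest differences were those of Ppbp (Satb1 array 3075, GFP array 1752.5), Selp (Satb1 array 1528, GFP array 909) and Gp1bb (Satb1 array 488.5, GFP array 292), of which Gp1bb had another probe set that went the other way. Its part in the values of the family was not tested.

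The monocyte list, set beside Klf4, had 3 of its 10 measured genes higher and 7 lower, where 54.8% of all genes above the floor were lower, with a median of -0.12 and summed intensities of 16888 on the array labelled Satb1 and 17304 on the array labelled GFP. The chemokine receptor gene Ccr2 read 2221 on the array labelled Satb1 and 3172 on the array labelled GFP, and 3 of its 4 probe sets read lower. Cd14 read 246 on the Satb1 array and 319.8 on the GFP array, and Csf2ra 276 on the Satb1 array and 346 on the GFP array. The 3 higher genes, named after their values were seen, were Lyz2 (Satb1 array 7280, GFP array 5937), Cx3cr1 (Satb1 array 356, GFP array 313) and Adgre1 (Satb1 array 192.5, GFP array 169.6). After quantile normalization 4 were higher and 6 lower. None of the 10 was 2-fold apart.

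Genes that respond to factors of the family, or to the signals that induce it, gave mixed values. Of 5 trafficking receptor genes above the floor, 3 were higher and 2 lower: S1pr1, which Klf2 activates in T lymphocytes, read 149.6 on the array labelled Satb1 and 106 on the array labelled GFP, while Cxcr4 (Satb1 array 1115, GFP array 1354) and Il7r (Satb1 array 156, GFP array 187) read lower. Of 9 cell cycle genes above the floor, 4 were higher and 5 lower, led by Cdkn2d (Satb1 array 1878, GFP array 1461), Ccnd1 (Satb1 array 4454, GFP array 3508) and Myc (Satb1 array 6079, GFP array 7526). Cdkn1a, named after its values were seen, an inhibitor gene that Klf4 and Klf6 can activate, read 1384 on the array labelled Satb1 and 1672 on the array labelled GFP, with its other probe set higher. Neither list had a gene 2-fold apart.

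Lists of genes tied to signals that induce members differed in direction. The glucocorticoid-induced list, set beside Klf9, had 2 of 9 genes higher and 7 lower with a median of -0.14. Its largest differences were those of Dusp1 (Satb1 array 1211, GFP array 678), Nfkbia (Satb1 array 4800.0, GFP array 6830.2) and Sgk1 (Satb1 array 357, GFP array 469.6). Dusp1 is also in the immediate early list, where it counts among the higher genes. The TGF-beta list, set beside Klf10, mixes genes of the pathway itself, such as its ligand and receptors, with genes that can respond to it. It is therefore no measure of induction by TGF-beta. It had 7 of 10 genes higher and 3 lower with a median of 0.17. In it Id3 read 145 on the array labelled Satb1 and 55.0, under the floor, on the array labelled GFP, at least 2.35-fold higher. Id2 (Satb1 array 1090, GFP array 667) and Tgfb1 (Satb1 array 1170.3, GFP array 914) followed. The immediate early list, set beside Klf2, Klf4, Klf6 and Klf10, which are themselves induced within the early response of many cells, had 13 of 19 genes above the floor higher and 6 lower, with a median of 0.22 and summed intensities of 19874 on the array labelled Satb1 and 16707 on the array labelled GFP. Fos read 2406 on the array labelled Satb1 and 899 on the array labelled GFP, a 2.68-fold ratio. Fosb read 117.5 on the Satb1 array and 18.6 on the GFP array, which is at least 1.90-fold from the floor, and Atf3 144 on the Satb1 array and 76.3 on the GFP array. Egr1, named after its values were seen, read 1806 on the array labelled Satb1 and 963 on the array labelled GFP. Of the lower genes, also named after their values were seen, Btg2 read 1046 on the array labelled Satb1 and 1435 on the array labelled GFP, and Dusp2 read 920 on the array labelled Satb1 and 1228 on the array labelled GFP. Egr3 read 49.8, under the floor, on the array labelled Satb1 and 84.0 on the array labelled GFP, with 1 of its 2 probe sets higher. The part of an early response in the values of Klf2 and Klf4 was not tested.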

How the data were processed

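Gene expression was measured on 2 Affymetrix arrays, 1 labelled Satb1 and 1 labelled GFP. The deposited values are intensities on a linear scale, made by the authors with MAS5 per the submitters' processing notes; its version and scaling target are not stated in the sources used here. Read depth does not apply, and the number of arrays limits precision. The platform annotation gave a single symbol to 34945 probe sets, several to 932 and none to 9160. Of those with a single symbol, 34741 were matched by Entrez ID to the RefSeq table of GRCm38.p6 and took its symbol, changed or not. Only probe sets with a single symbol were used.

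Each gene was represented by its brightest probe set, by the mean of the log2 intensities. Intensities below the floor of 61.7 were set to it, and log2 differences (Satb1 minus GFP) were taken with no further normalization. Genes were counted at 2-fold or more. No test was possible with 1 array per group. The genes named are all probe sets of the members, up to 3 genes per list with the largest absolute difference among those above the floor, and the measured genes of a list of surface markers. Satb1 was read as a check of the labels, and other genes are marked as named after their values were seen. Members and lists were chosen with earlier results of these data known. Alternatives were other floors, an offset of 32, quantile normalization, median centring, the mean over probe sets, omission of probe sets whose names end in _s_at or _x_at, and thresholds of 1.5-fold and 3-fold. Scripts in Python 3.11.15 (numpy 2.4.6, pandas 2.3.3, matplotlib 3.10.9) were tested on simulated data. Upstream sequences are RefSeq's, matched by symbol.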

Additional observations from a re-analysis of the deposited data

How the results depend on the processing

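The count of members at least 2-fold higher was 2, Klf2 and Klf4, with the floor at the 25th percentile, with no floor, after quantile normalization, after median centring, with the mean over probe sets and without probe sets ending in _s_at or _x_at. A floor at the 75th percentile gave 0, an offset of 32 gave 0 and a 3-fold threshold gave 0, and at 1.5-fold it was 3, with Klf1. The first of these sets every intensity under 443 to that value, which covers all values of Klf1, Klf2 and Klf4. With the offset, Klf2 stood at 0.88 and Klf4 at 0.94. No member was 2-fold lower under any of these settings, or 1.5-fold lower. The median difference lay between 0.01 (75th percentile) and 0.41 (mean over probe sets). With the mean over probe sets Klf9 stood at 0.35 and Klf13 at -0.05, and without the _s_at and _x_at probe sets Klf12 stood at -0.31. No paired analysis was possible because each group has 1 array, and no array could be left out.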
